A study of Homo sapiens and Mus musculus with 66 samples.

Results

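Chromosome 19 holds the densest collection of C2H2 zinc finger genes in the human genome. A total of 240 of its 1480 protein-coding genes (16.2%) carry a symbol made of ZNF and digits in GENCODE release 44 mapped to hg19, and these 240 were chosen by that symbol rule alone, out of 20163 protein-coding genes on chromosomes 1 to 22, X and Y. Most of them arose by repeated tandem duplication and encode a KRAB domain followed by an array of fingers. The fingers bind DNA, often in retrotransposons, and the KRAB domain recruits TRIM28 and the H3K9 methyltransferase SETDB1 to silence the bound sequence. The ZNF clusters themselves carry H3K9me3 over their gene bodies in many cell types. Heterochromatin of this kind is often found at the nuclear lamina (NL), the meshwork of lamins under the inner nuclear membrane, where lamina-associated domains (LADs) are tethered.

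The study mapped DNA near lamin-B1 by cTSA-seq, a form of tyramide signal amplification (TSA) sequencing that pulls down whole chromatin. In this method an antibody brings a peroxidase to lamin-B1 in fixed cells, the peroxidase deposits biotin on chromatin nearby, and biotinylated chromatin is pulled down on streptavidin and sequenced beside its input. K562, a leukemia line, was mapped in bulk with 2 inputs and 2 pull-downs. HCT116, a colorectal cancer line, was mapped in bulk in the same way, from 50000 and from 200000 cells with 1 input and 2 pull-downs each, and from 1000000 cells with 1 input and 1 pull-down. HCT116 cells were also mapped as sorted G1, S and G2 fractions of an asynchronous culture, where the G2 gate takes cells of G2 DNA content and does not part them from mitotic cells, and as G1 cells sorted 90 min (90m G1) or 180 min (180m G1) after release from a 16 h nocodazole block, each with 2 inputs and 2 pull-downs. The duration of the block is the labels' own, and the study's methods give a longer one. Only 90m G1 and 180m G1 cells had seen the drug. Each condition is represented by 1 list of regions, in windows of 100 kb, that a 3-state model called as enriched, and a gene has 1 value per condition: the percentage of its annotated length that lies inside the list. Replicates are already merged and neither signal nor read depth accompanies a list. No spread between replicates can therefore be given, no test was run, and every difference below is a difference between lists. A gene was counted as inside a list when at least 80% of its length lay in it, and the same count over all protein-coding genes is given as the background. Neighbouring genes share windows, so a count of genes is not a count of independent observations.

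The 240 genes spanned 3.12 to 489 kb (median 25.5 kb), and 231 of them fell into 9 clusters of at least 5 genes whose neighbouring starts lay no more than 1 Mb apart. Cluster 1 (5 genes, chr19:2819866-2944969), cluster 2 (15 genes, chr19:7069714-9903856) and cluster 3 (25 genes, chr19:11594242-12750912) lie on the short arm. Cluster 4 (37 genes, chr19:19779605-24312770, from ZNF101 to ZNF254) is the widest at 4.53 Mb and ends next to the gap that stands for the centromere in hg19. Cluster 5 (5 genes, chr19:35168544-35455133), cluster 6 (24 genes, chr19:36673178-38307940), cluster 7 (24 genes, chr19:44029649-45579736), cluster 8 (39 genes, chr19:52074536-54083523) and cluster 9 (57 genes, chr19:55987984-58992597) follow on the long arm. Other coding genes were rare inside cluster 4, where 3 overlapped its span, and common inside clusters 2 and 9, where 60 and 54 did. The remaining 9 genes (ZNF333, ZNF536, ZNF507, ZNF546, ZNF574, ZNF526, ZNF541, ZNF114 and ZNF473) stood apart from the clusters.

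In asynchronous HCT116 cells the ZNF genes of chromosome 19 were inside each of the 7 lists at a higher share than coding genes at large, and in K562, 90m G1 and 180m G1 cells none was inside. The HCT116 bulk list held 60 of the 240 genes (25%), against 11.1% of all protein-coding genes. The K562 list held 0 of 240, against 11.0% of all protein-coding genes, and touched only 1 of them, ZNF536, over 41.8% of its length. The list made from published K562 TSA-seq data also held 0 of 240, with 9.21% of all protein-coding genes inside. The K562 list held 1 of the other 1240 coding genes of the chromosome, so little else there was inside either. The K562 cTSA-seq list covered 2.9 Mb of chromosome 19 in 3 regions, none of which overlaps a cluster, and the HCT116 bulk list 10.2 Mb in 9 regions. Over all chromosomes the order was the other way round, with 1227 Mb called in K562 and 834.2 Mb in HCT116 bulk cells. The higher share rested in part on cluster 4, described below. Without its 37 genes the shares over the other 203 were 17.2% in bulk, 15.8% at 200000 cells, 30% at 50000 cells and 20.7% in G1, still above the background of each list, but 4.43% at 1000000 cells, 5.42% in S and 1.97% in G2, near or below it.

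**Figure D1:**
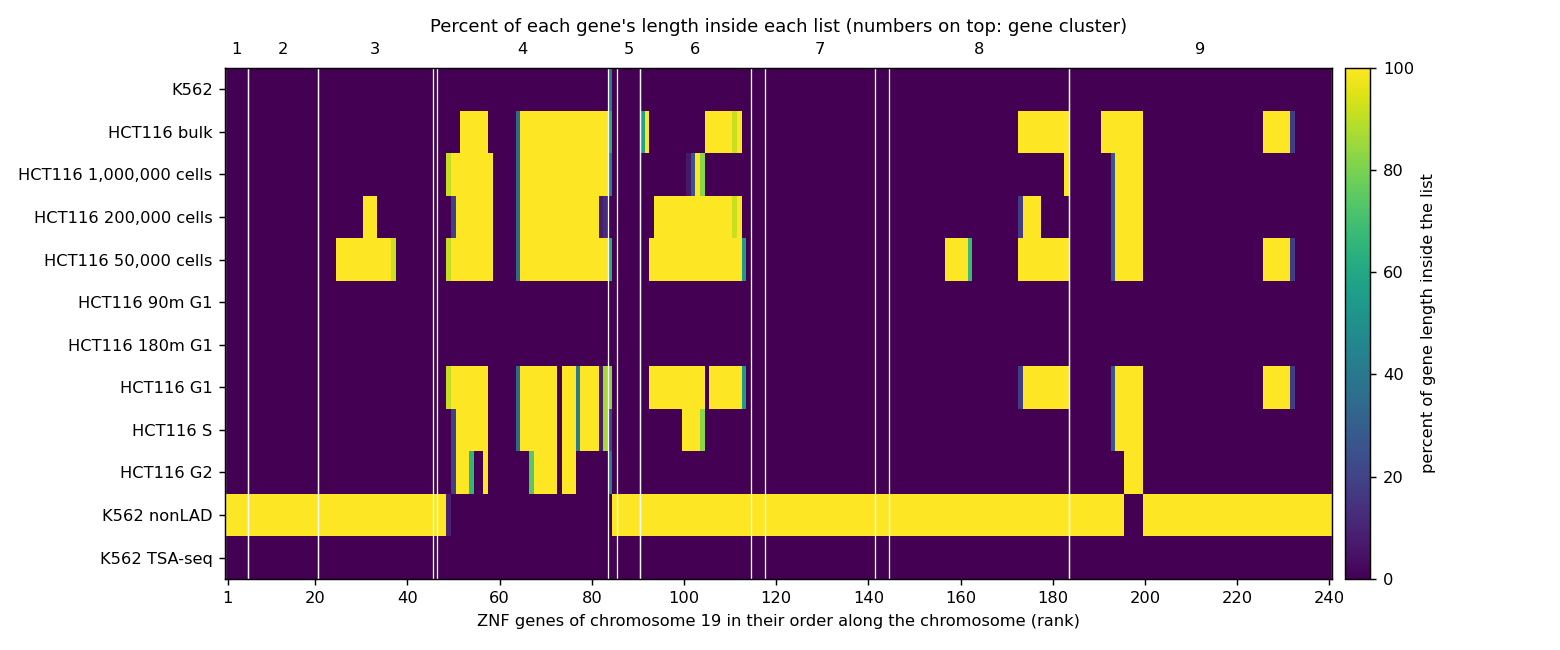
Percentage of each gene's length inside each of the 12 lists (colour), for the 240 ZNF genes in their order along chromosome 19 (horizontal axis, rank) with cluster numbers above and white lines at the cluster ends. Clusters 1, 2, 5 and 7 are dark in every LAD list, cluster 4 is bright in the 7 asynchronous HCT116 lists, and the 90m G1 and 180m G1 rows are empty.

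The calls in HCT116 cells were uneven along the chromosome. In bulk cells they fell on 25 genes of cluster 4, 9 of cluster 6, 11 of cluster 8 and 15 of cluster 9, and on none of the other 5 clusters. Across the 7 lists from asynchronous HCT116 cells (bulk, the 3 cell numbers, G1, S and G2), 95 genes (39.6%) were inside at least 1 list, against 12.8% of all protein-coding genes, 15 (6.25%) were inside all 7, against 2.94%, and 145 were inside none. All but 4 of those 15 lay in cluster 4, and the 4 were neighbours in cluster 9. Clusters 1, 2, 5 and 7 had no gene inside any of them. The nearest region called in any condition lay 8.96 Mb from cluster 1, 2 Mb from cluster 2, 1.24 Mb from cluster 5 and 5.83 Mb from cluster 7. Well-studied genes of those clusters, such as ZNF57 (cluster 1), ZNF121 and ZNF317 (cluster 2) and ZNF45 and ZNF180 (cluster 7), were at 0% in all 10 conditions. ZNF554, ZNF557, ZNF302 and ZNF575, the first genes of clusters 1, 2, 5 and 7, were at 0% as well.

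ZNF genes elsewhere in the genome gave a different order of conditions. Of the 236 such genes on other chromosomes, 24.6% were inside the bulk HCT116 list, next to 25% of the chromosome 19 genes, and 6.36% were inside the K562 list. Their highest share was 25.4%, in the 90m G1 list, where the chromosome 19 ZNF genes had 0%. At 50000 cells, where the chromosome 19 ZNF genes had their highest share (37.5%), 10.6% were inside. The other 1240 protein-coding genes of chromosome 19 were rarely inside, at 2.18% in bulk HCT116 cells and 0.0806% in K562 cells. ZNF genes thus made up 69% to 77% of the chromosome 19 genes inside the 7 asynchronous HCT116 lists, while being 16.2% of the chromosome's coding genes. Tandem families of other function were counted beside them. None of 20 olfactory receptor genes, 17 LILR and KIR genes, 11 SIGLEC genes, 22 CEACAM and PSG genes, 15 KLK genes and 12 CYP2 and CYP4F genes of the chromosome was inside any condition's list. The other coding genes of the chromosome were inside at 0% to 2.58% per list. A count of none in sets this small does not set these families apart from them.

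**Figure D2:**
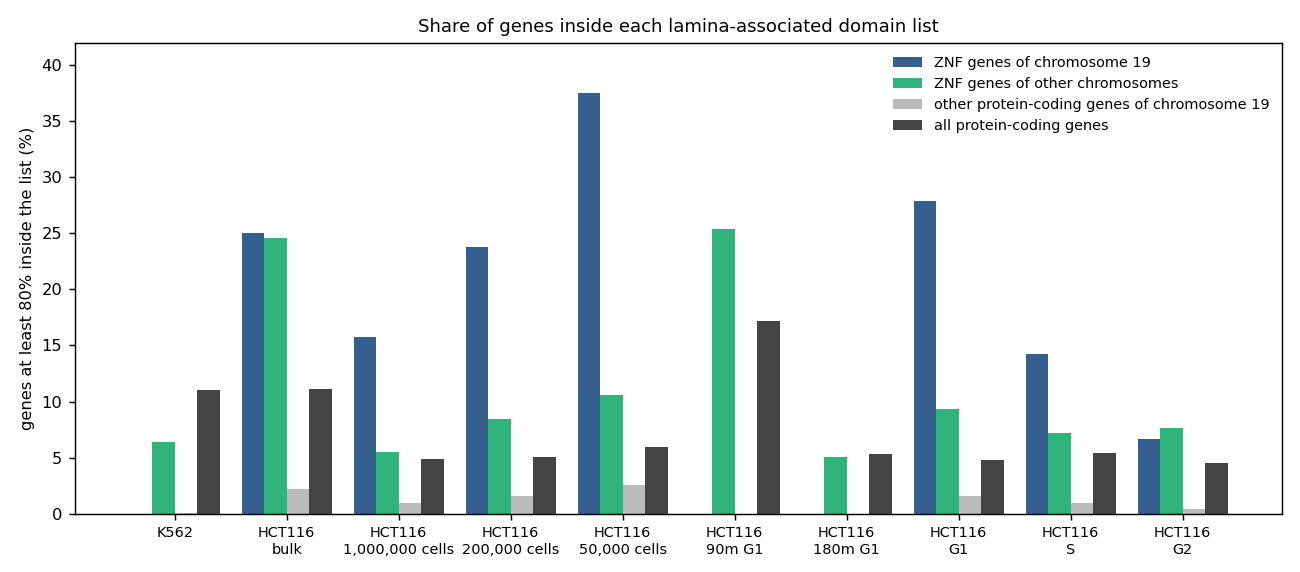
Percentage of genes at least 80% inside each condition's list (vertical axis) for ZNF genes of chromosome 19, ZNF genes of other chromosomes, other chromosome 19 genes and all protein-coding genes. The chromosome 19 ZNF bars reach 37.5% at 50000 cells and are at 0 in K562, 90m G1 and 180m G1, while ZNF genes of other chromosomes reach 25.4% in 90m G1.

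Cluster 4 held the genes most often inside. It lies next to the centromere and includes ZNF91 and ZNF93, repressors of SVA and LINE-1 retrotransposons, and ZNF43, ZNF85, ZNF208, ZNF257 and ZNF675, further KRAB zinc finger genes of primate-expanded families. ZNF208 (chr19:22115760-22193751, 78 kb) was 100% inside the bulk, 1000000-cell, 200000-cell, 50000-cell, G1, S and G2 lists and 0% inside the K562, 90m G1 and 180m G1 lists. ZNF257 (chr19:22235232-22274282), ZNF98 (chr19:22573821-22715287, 141 kb) and ZNF682 (chr19:20107867-20150314) showed the same values. ZNF91 (chr19:23487793-23578273) and ZNF675 (chr19:23708433-23870022, 162 kb) differed from them in the G2 list alone, where both were at 0%. ZNF43 (chr19:21987752-22034927) was 100% inside 6 of the 7 lists and 74% inside G2, just under the 80% required. ZNF93 (chr19:20011722-20074273) was at 0% in bulk cells and at 100% in the other 6. ZNF85 (chr19:21106028-21133503) was at 100% in the 3 lists of counted cells and at 0% in bulk, G1, S and G2. All of these were at 0% in K562 cells.

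At 1 edge and in its middle the cluster was left out. ZNF101 and ZNF14 (chr19:19821281-19843921), at the end away from the centromere, were at 0% in all 10 conditions, and they were the only genes of cluster 4 inside the K562 nonLAD list. A stretch of 400 kb in the interior (chr19:21200001-21600000) was called in none of the 7 lists. It holds ZNF430, ZNF714, ZNF431, ZNF708 and ZNF738, all at 0% throughout, and the first part of ZNF493 (chr19:21579921-21610379), of which 34.1% lay inside each list except G2. The G + C content of this stretch (median 39.75% over its windows) lay within the range of the 15 windows of cluster 4 called in all 7 lists, which ran from 37.9% to 44.4% with a median of 41.2%. Its share of bases that start a 31-base word found more than once on the chromosome (median 18.16%) was also close to theirs (20.8%). In the K562 nonLAD list this stretch was at 0%, unlike that end.

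Narrower interruptions recurred in the sorted fractions. Single windows at chr19:22800001-22900000, chr19:23200001-23300000 and chr19:24100001-24200000 were absent from G1, S and G2 alike, whereas bulk, 1000000-cell and 50000-cell lists called all 3 and the 200000-cell list called the first pair. These windows hold ZNF492, part of ZNF730 and most of ZNF726, genes named here because they fill the interruptions. ZNF492 went from 100% in all 4 unsorted lists to 0% in all 3 sorted ones, and ZNF730 from 100% to 41.7% in G1 and S and 0% in G2. Repeated 31-base words took 33.16%, 15.84% and 15.75% of the 3 windows, so the share was high in the ZNF492 window and near the cluster's median of 18.2% in the other two. Their part in the calls was not tested.

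**Figure D3:**
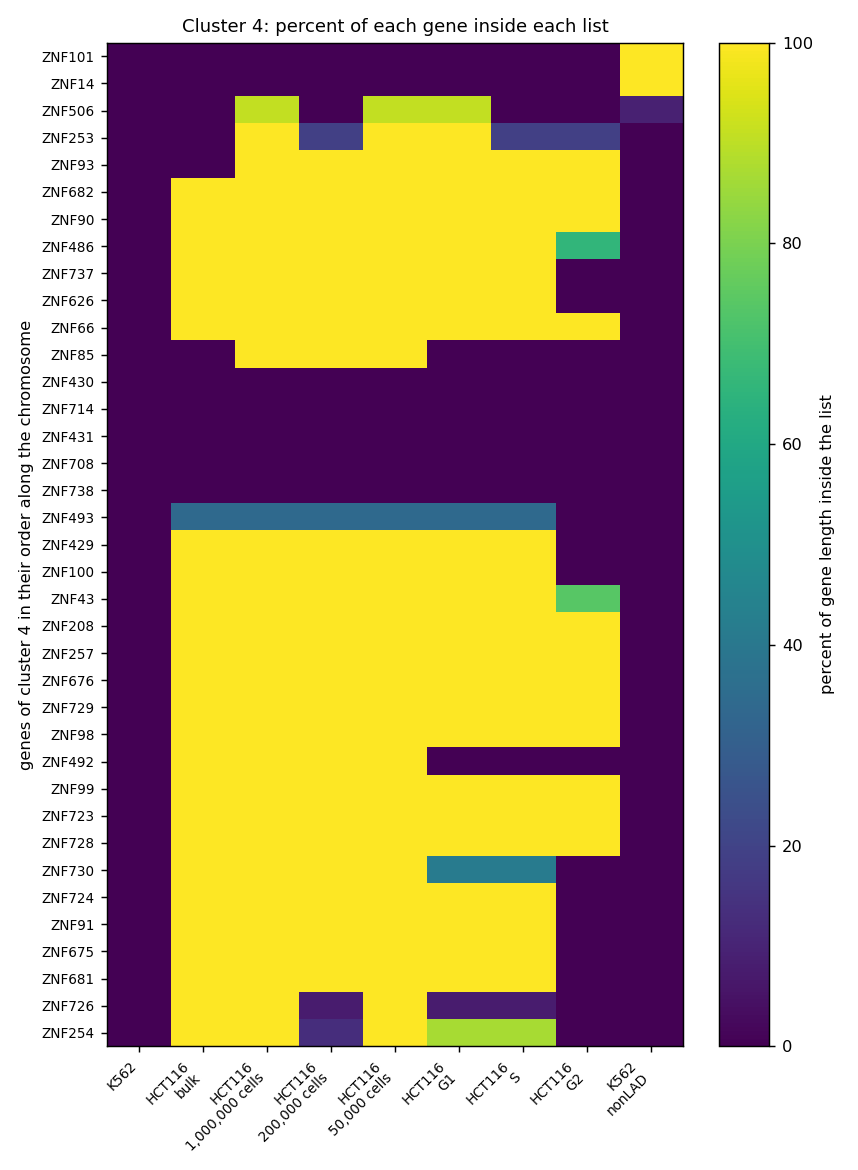
Percentage of each gene's length inside each list (colour) for the 37 genes of cluster 4, in chromosomal order from top to bottom, with K562, the 7 asynchronous HCT116 lists and the K562 nonLAD list as columns. The block from ZNF430 to ZNF738 stays at 0% in every column, and ZNF492 is at 100% in the 4 unsorted HCT116 columns and at 0% in the G1, S and G2 columns.

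The promoters of cluster 4 share short words, and a few are shown so that genes inside and outside the lists can be compared. The RefSeq promoter table (GRCh38.p14, 250 bases before to 50 after each start) matched 210 of the 240 genes, among them 29 of cluster 4. The 10-base word found in most of those 29, on either strand, was CCTGATTGGA, present in 26 (89.7%). On its other strand it reads TCCAATCAGG, which contains a CCAAT box, and all its copies marked below read that way. The next such word that shares no 6 bases with the first, CTGTCACTCA, was present in 22 (75.9%). Over all 27305 genes of the table, 0.428% held the first and 0.418% the second. Both words were picked from these promoters, so the counts are a description. In the sequences below, each the 250 bases before the start from 5′ to 3′, capitals mark the words on either strand. ZNF208 (chr19:22010944-22011193 on the minus strand) and ZNF91 (chr19:23395472-23395721 on the minus strand) were inside 7 and 6 of the 7 lists. ZNF85 (chr19:20923001-20923250 on the plus strand) was inside 3, and ZNF431 (chr19:21141790-21142039 on the plus strand) lies in the interior stretch that was inside none. ZNF57 (chr19:2900678-2900927 on the plus strand) stands for cluster 1, and ZNF835 (chr19:56671758-56672007 on the minus strand) for the genes of cluster 9 inside all 7.
ZNF208: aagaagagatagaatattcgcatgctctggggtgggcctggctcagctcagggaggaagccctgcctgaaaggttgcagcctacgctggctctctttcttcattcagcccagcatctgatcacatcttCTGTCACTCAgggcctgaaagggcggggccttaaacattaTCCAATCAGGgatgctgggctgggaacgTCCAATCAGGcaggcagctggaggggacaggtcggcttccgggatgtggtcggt
ZNF91: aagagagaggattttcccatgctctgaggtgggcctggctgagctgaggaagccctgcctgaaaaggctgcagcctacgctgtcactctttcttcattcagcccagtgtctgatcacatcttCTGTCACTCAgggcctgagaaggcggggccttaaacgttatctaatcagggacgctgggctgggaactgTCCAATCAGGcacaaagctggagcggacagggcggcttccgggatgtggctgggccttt
ZNF85: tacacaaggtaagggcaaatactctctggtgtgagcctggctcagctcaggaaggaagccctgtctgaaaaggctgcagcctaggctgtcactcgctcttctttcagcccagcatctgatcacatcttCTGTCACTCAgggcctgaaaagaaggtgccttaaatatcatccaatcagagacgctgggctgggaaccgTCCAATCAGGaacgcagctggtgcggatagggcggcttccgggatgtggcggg
ZNF431: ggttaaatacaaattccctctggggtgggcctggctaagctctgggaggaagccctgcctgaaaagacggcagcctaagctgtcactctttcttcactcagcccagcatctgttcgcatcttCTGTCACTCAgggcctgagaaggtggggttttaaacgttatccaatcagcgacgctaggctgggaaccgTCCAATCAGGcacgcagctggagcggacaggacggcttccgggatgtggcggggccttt
ZNF57: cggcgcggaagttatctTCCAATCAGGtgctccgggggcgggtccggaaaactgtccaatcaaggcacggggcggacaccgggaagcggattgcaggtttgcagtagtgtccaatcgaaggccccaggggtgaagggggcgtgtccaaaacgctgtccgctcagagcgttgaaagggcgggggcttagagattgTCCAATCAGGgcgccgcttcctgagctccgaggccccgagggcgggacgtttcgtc
ZNF835: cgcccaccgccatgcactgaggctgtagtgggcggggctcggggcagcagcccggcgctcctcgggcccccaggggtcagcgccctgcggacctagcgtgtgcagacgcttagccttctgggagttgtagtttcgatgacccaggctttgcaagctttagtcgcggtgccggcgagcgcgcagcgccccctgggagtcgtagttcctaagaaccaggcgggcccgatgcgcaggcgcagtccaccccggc
The first word began 82 and 54 bases before the start in ZNF208, 59 bases before it in both ZNF91 and ZNF431, 53 in ZNF85, and 233 and 56 in ZNF57. ZNF431 was inside no list and ZNF91 inside 6. ZNF835, inside all 7 lists, carried neither word. These 6 promoters were picked by hand, and a link between the words and the lists was not tested.

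Over all 210 matched genes both words were more frequent among those inside at least 1 list, where each was in 32.1%, than among those inside none, where the first was in 13.2% and the second in 5.43%. Both words were picked as the most frequent in cluster 4, which held the genes most often inside. The difference was therefore set in part by that choice. Cluster 4 alone held 26 of the 43 genes with the first word and 22 of the 33 with the second. Within it the first was in 4 of 6 matched cluster 4 genes inside all 7 lists, in 16 of 16 inside 1 to 6 lists and in 6 of 7 inside none, and the second in 83.3%, 81.2% and 57.1% of the same sets. The first was also in 14 of 24 genes of cluster 3 and 3 of 5 of cluster 1, and in none of the 52 matched genes of cluster 9, the 23 of cluster 6 or the 32 of cluster 8. Cluster 4 promoters held fewer CpG dinucleotides, with a median of 10 in 300 bases against 22 in the members of all other clusters and outside them. Within cluster 4 the median was 9.5 for genes inside all 7 lists and 13 for genes inside none.

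Cluster 9 contributed 4 of the 15 genes inside every asynchronous list. ZNF471 (chr19:57019219-57041590), ZNF470, ZNF71 and ZNF835 are neighbours, and all 4 were 100% inside bulk, the 3 cell numbers, G1, S and G2. They lie in a region that also held ZFP28 and the imprinted pair ZIM2 and PEG3, which were inside the same 7 lists. ZNF583 and ZNF667, on its left side, were inside 6 and missing in G2. In the same cluster ZNF417, ZNF418, ZNF256, ZNF606, ZNF135 and ZNF329 were inside bulk, 50000 cells and G1 only. ZNF274 (chr19:58694396-58724928), which binds the 3′ ends of other ZNF genes and recruits SETDB1 to them, lies at the edge of that region and was 18.4% inside the same 3 lists. ZNF628 was at 0% in all conditions.

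Clusters 6 and 8 differed widely between the asynchronous lists, with 0 to 20 genes inside in cluster 6 and 0 to 16 in cluster 8. ZNF568 (chr19:37407218-37495939), whose mouse counterpart represses a placental Igf2 transcript, was at 0% in bulk and G2 and at 100% from 1000000, 200000 and 50000 cells and in G1 and S. ZNF420 (chr19:37498759-37621270, 123 kb), reported as a regulator of p53, was at 0% in bulk and G2, at 82.6% from 1000000 cells and in S, and at 100% from 200000 and 50000 cells and in G1. ZNF146 (chr19:36705504-36729673), a short protein made almost wholly of fingers without a KRAB domain, was 100% inside the bulk list and at 0% elsewhere. ZNF565, which overlaps it, was at 58.1% in bulk and 0% elsewhere. In cluster 8, ZNF415 (chr19:53611132-53636330) was at 100% in bulk, 200000 cells, 50000 cells and G1 and at 0% in 1000000 cells, S and G2. ZNF808, a repressor of MER11 elements, ZNF350, a partner of BRCA1, ZNF649 and ZNF175 were at 0% in every condition.

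The number of input cells was compared next, since the method was built for small samples. At 50000 cells 90 of the 240 ZNF genes (37.5%) were inside, against 5.98% of all protein-coding genes. At 200000 cells 57 (23.8%) were inside, against 5.08%, and at 1000000 cells 38 (15.8%), against 4.89%. All 38 genes of the 1000000-cell list and all 57 of the 200000-cell list were among the 90 of the 50000-cell list, which is 42.2% and 63.3% of that list. The 1000000- and 200000-cell lists shared 33 genes (86.8% and 57.9%). From 50000, 200000 and 1000000 cells the lists covered 12.1, 9.6 and 9.1 Mb of chromosome 19, and 706.2, 677.6 and 656.1 Mb over all chromosomes. The labels used here give 2 pull-downs for each of the smaller samples and 1 for 1000000 cells, although that list too is named a consensus. The lists carry no read depth, and its part in these differences was not tested.

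Among the 4 unsorted lists, 16 genes were inside the 50000-cell list alone, 10 of them in cluster 3, 5 in cluster 8 and 1, ZNF566, in cluster 6. Cluster 3 gave 13 genes at 50000 cells, 3 at 200000 cells and none in any other list. ZNF20 (chr19:12203658-12251170) was at 100% and ZNF44 (chr19:12335501-12405698) at 91.9% with 50000 cells, and both were at 0% in the other 9 conditions. ZNF433 (chr19:12125530-12146556) was at 100% with 50000 and 200000 cells, and ZNF653 was at 0% throughout. Cluster 6 gave 20, 19 and 2 genes at 50000, 200000 and 1000000 cells, and cluster 8 gave 16, 4 and 1. Cluster 4 changed little, with 29, 25 and 29. Bulk cells shared 56 of their 60 genes (93.3%) with the 50000-cell list (62.2%), and ZNF146, ZNF787, ZNF444 and ZNF582 were inside the bulk list alone. A core of 29 genes was inside all 4 unsorted lists, 23 of them in cluster 4.

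Across the sorted fractions of asynchronous cells the lists held fewer ZNF genes from G1 to S to G2. In G1 67 genes were inside (27.9%, against 4.81% of all protein-coding genes), in S 34 (14.2%, against 5.38%) and in G2 16 (6.67%, against 4.55%). All 34 genes of the S list were in the G1 list and all 16 of the G2 list were in the S list, so no gene was inside in S or G2 without G1. Of the 240 genes, 16 were inside all 3 fractions, 18 inside G1 and S, 33 inside G1 alone and 173 inside none. The genome as a whole did not follow this order, with 970, 1085 and 918 protein-coding genes inside and 624.9, 692.5 and 618 Mb called in G1, S and G2. On chromosome 19 the called length was 10.1, 7.5 and 4.9 Mb. The other 1240 coding genes of the chromosome also went down, from 1.61% to 0.968% and 0.403%. ZNF genes of other chromosomes were at 9.32%, 7.2% and 7.63%.

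**Figure D4:**
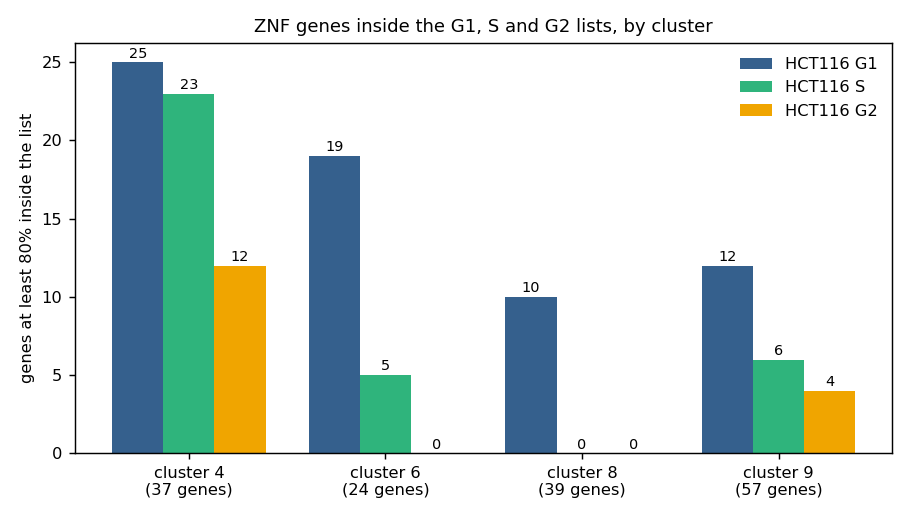
Number of ZNF genes at least 80% inside the G1, S and G2 lists of asynchronous HCT116 cells (vertical axis), for the 4 clusters with any gene inside. Cluster 8 goes from 10 genes to 0 and 0, cluster 6 from 19 to 5 and 0, cluster 9 from 12 to 6 and 4, and cluster 4 from 25 to 23 and 12.

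The clusters differed in how their counts changed between the G1, S and G2 lists. Cluster 8 had 10 genes inside in G1 and none in S or G2, and cluster 6 had 19, 5 and none. The 5 genes of cluster 6 that were still inside in S were ZNF790, ZNF345, ZNF829, ZNF568 and ZNF420. Cluster 9 had 12, 6 and 4, and cluster 4 had 25, 23 and 12. Among the 4 unsorted lists cluster 6 ranged from 2 to 20 genes and cluster 8 from 1 to 16. Differences of similar size thus also occurred between lists of unsorted cells in these clusters. In the same lists cluster 9 ranged from 6 to 15 genes and cluster 4 from 25 to 29. By length, the G1, S and G2 lists covered 79.4%, 77.2% and 35.3% of the span of cluster 4, and 73.4%, 18.4% and 0% of that of cluster 6. The 16 genes inside all 3 fractions were ZNF93, ZNF682, ZNF90, ZNF66, ZNF208, ZNF257, ZNF676, ZNF729, ZNF98, ZNF99, ZNF723 and ZNF728 in cluster 4 and ZNF471, ZNF470, ZNF71 and ZNF835 in cluster 9. From the right part of cluster 4, ZNF724, ZNF91, ZNF675, ZNF681 and ZNF254 were inside in G1 and S and at 0% in G2. ZNF254 (chr19:24216207-24312770) was at 86.8% in both G1 and S, with 100% in bulk cells and 13.2% at 200000 cells.

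ZNF536 did not behave like the clustered genes. It encodes a zinc finger protein of the nervous system without a KRAB domain and is by far the longest member (chr19:30715798-31204493, 489 kb). It was 41.8% inside the K562, 1000000-cell and G2 lists, 62.3% inside bulk and 50000 cells, 0.919% inside 200000 cells, 21.4% inside S and 82.8% inside G1. Its values changed because the left end of 1 region moved along the gene, and G1 was the only list in which it passed 80%. ZNF507, also outside the clusters, was at 0% in all conditions.

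In cells released from the nocodazole block no ZNF gene of chromosome 19 was inside a list. At 90 min after release 0 of 240 were inside, against 17.2% of all protein-coding genes, and at 180 min 0 of 240, against 5.30%. The zeros are those of the whole chromosome, since neither list has a region on chromosome 19. The 90m G1 list also has none on chromosome 21, and the 180m G1 list none on chromosome 22, while the other 8 condition lists have regions on all of chromosomes 1 to 22, X and Y. On other chromosomes 25.4% of the ZNF genes were inside the 90m G1 list and 5.08% inside the 180m G1 list. From the lists alone, without signal values, a weak enrichment over the clusters in these cells cannot be told apart from none. The study itself reported little or no signal at the ends of chromosome 19 in 90m G1 cells. Both conditions also differ from the sorted G1 fraction by the nocodazole block.

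In K562 cells the clusters divided by another measure. The list of regions that cTSA-seq and TSA-seq both found depleted (K562 nonLAD) held 200 of the 240 genes (83.3%), against 54.6% of all protein-coding genes and 97.3% of the other coding genes of chromosome 19. The remaining 40 were in neither the LAD list nor the nonLAD list, and they were 35 of the 37 genes of cluster 4, the 4 neighbours ZNF471, ZNF470, ZNF71 and ZNF835 of cluster 9, and ZNF536. All 16 genes inside G1, S and G2 of HCT116 cells were among these 40. Inside at least 1 of the 7 asynchronous HCT116 lists were 34 of the 40 (85%), against 18% of all protein-coding genes in neither K562 list, and 61 of the 200 (30.5%), against 3.64% of all those in the nonLAD list. The 34 were 29 genes of cluster 4, the 4 neighbours of cluster 9 and ZNF536, and so stand for few separate loci. The 61 were 21 genes of cluster 6, 16 of cluster 8, 13 of cluster 3 and 11 of cluster 9. They were depleted by both methods in K562 cells and called in at least 1 of the 7 HCT116 lists. The bulk HCT116 list, the counterpart of bulk K562, held fewer. It had 9 genes of cluster 6, 11 of cluster 8, none of cluster 3 and 15 of cluster 9, the last with the 4 neighbours among them. Those of cluster 3 came from the 50000- and 200000-cell lists only. The comparison sets 7 HCT116 lists together beside 1 K562 list, and different cell lines with merged replicates give no error for it. A low share in K562 nonLAD was not particular to ZNF genes. Of the 22 CEACAM and PSG genes of the chromosome, 5 (22.7%) were inside that list.

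Genes inside 3 or more of the lists had a lower median G + C content than those inside fewer, and those inside none had the shortest median length. The median G + C content was 44.5% for the 145 genes inside none of the 7 asynchronous lists, 44% for the 20 inside 1, 44.5% for the 5 inside 2, 42.8% for the 22 inside 3, 41.5% for the 17 inside 4, 41.4% for the 3 inside 5, 40.5% for the 13 inside 6 and 39.5% for the 15 inside all 7. The median length was 18.7, 26.1, 21, 28.8, 35, 96.6, 41.7 and 32 kb for the same sets. Among the 15, ZNF835 and ZNF71 were the exceptions, at 54.6% and 46.17%. Among windows with a ZNF gene, those called in G2 had a median G + C content of 41.4% and those not called 44%, and the ranges overlapped, from 37.9% to 46.9% against 38.6% to 56.2%. Over all windows of chromosome 19 the medians were 42.5% and 49.8%, so the lower value of called windows was not particular to ZNF genes. Within cluster 4 the order was not seen. Its windows had medians of 41.2% when called in all 7 lists, 40.9% in 1 to 6 lists and 40.1% in none. Base composition can affect sequencing coverage, and its part in the calls was not tested. ZNF430 and ZNF714 of cluster 4, inside no list, were also low, at 39.04% and 38.78%.

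**Figure D5:**
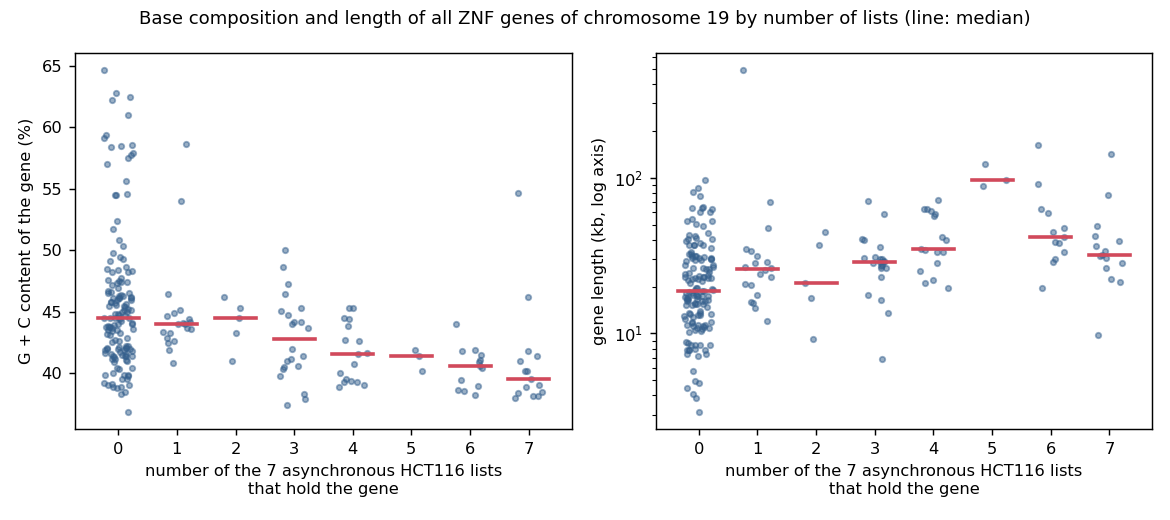
G + C content in percent (left) and length in kb on a log axis (right) of each of the 240 ZNF genes, by the number of the 7 asynchronous HCT116 lists that hold it, with a line at the median of each set. The median G + C content is 44.5% at 0 lists and 39.5% at 7 lists, with wide overlap between neighbouring sets.

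Related genes and partners were counted for context. Counted first were 25 other zinc finger genes of chromosome 19. Their symbols were ZSCAN, ZFP, ZIM, ZIK, PEG3, ZBTB, or ZNF with a letter after the digits. In bulk cells 9 were inside (36%, against 11.1% of all protein-coding genes), and at 1000000 cells 4 (16%, against 4.89%). At 200000 cells 6 were inside (24%, against 5.08%), and at 50000 cells 11 (44%, against 5.98%). In G1 7 were inside (28%, against 4.81%), in S 4 (16%, against 5.38%) and in G2 3 (12%, against 4.55%). Those in G2 were ZFP28, ZIM2 and PEG3. None was inside in K562 cells or after the nocodazole block, where 5.30% to 17.2% of all protein-coding genes were. ZNF585A and ZNF585B, which lie in cluster 6, were both inside at 50000 and 200000 cells. Counted too were 17 genes for proteins that act with KRAB domains, among them SETDB1, the HP1 genes CBX1, CBX3 and CBX5, ATRX and the HUSH subunit genes TASOR, MPHOSPH8 and PPHLN1. Only EHMT1 was inside any of the 10 condition lists, that of 90m G1 (5.88%, against 17.2% of all protein-coding genes). The other condition lists, with 4.55% to 11.1% of all protein-coding genes, held none of this small set. Inside the K562 nonLAD list were 13 (76.5%, against 54.6% of all protein-coding genes). TRIM28, the main KRAB partner, lies at the end of the same chromosome (chr19:59055431-59062089), just past cluster 9, and was 100% inside the K562 nonLAD list.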

How the data were processed

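Reads had been mapped by the authors to hg19 (Bowtie2 2.3.2 and bedtools 2.26.0 in the submitters' processing notes), stripped of duplicates and counted in 100 kb windows. The log ratio of pull-down over input had been turned into z-scores, parted into 3 states by a Hidden Markov Model, and the calls of replicates intersected. What the authors deposited is the start and end of each enriched region, in bp. Of 14 lists, 12 were used. The lists of regions shared by K562 cTSA-seq and TSA-seq and of regions found by cTSA-seq only were left out, being made from lists used here. The name consensus is missing from the lists of 90m G1 and 180m G1, so their intersection rests on the Methods alone. The lists carry no read depth, and none was used.

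Gene positions were those of GENCODE release 44, lifted to hg19. The percentage of each gene inside a list was computed from annotated start to end, and 80% was required to count as inside, as in the study. Base composition and 31-base words came from the hg19 sequence, and promoters from RefSeq (GRCh38.p14), by symbol. The interval arithmetic was tested on simulated data. Protein features were planned but not computed, since no protein table was used here. Named genes were a set of general interest, the highest and lowest of each cluster by mean percentage over the 10 conditions, the 5 longest of those inside some of G1, S and G2 and of those inside in HCT116 but not K562 cells, and those 20% to 80% inside in K562 or bulk HCT116 cells; complete sets, the genes of interruptions and neighbours were named after their values were seen. The genes, lists and alternatives were chosen with earlier results of these data known. Python 3.11.15, numpy 2.4.6 and, for the figures, matplotlib 3.10.9 were used.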

Additional observations from a re-analysis of the deposited data

How the results depend on the processing

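The counts for the 10 condition lists and K562 nonLAD were recomputed under 50% and 100% of the length, the start of the gene, symbols with a letter included, gaps of up to 100 kb joined, regions of at least 200 kb only (not for K562 nonLAD), and the largest cluster left out; the K562 TSA-seq count was not recomputed. Under these all 11 counts stayed within 1.5 times its value: 45 to 63 for bulk, 32 to 40 for 1000000 cells, 51 to 60 for 200000 cells, 78 to 93 for 50000 cells, 55 to 71 for G1, 28 to 37 for S, 12 to 18 for G2 and 147 to 206 for K562 nonLAD, with K562, 90m G1 and 180m G1 at 0 under all of them. The 9 clusters became 10 at a distance of 500 kb and 6 at 2 Mb. Leaving out cluster 4, chosen after seeing the data, lowered bulk to 35, 1000000 cells to 9, 200000 cells to 32, G1 to 42, S to 11 and G2 to 4, by construction, and 50000 cells to 61. Over the 203 remaining genes, 1000000 cells (4.43%, against 4.89% of all genes), S (5.42%, against 5.38%) and G2 (1.97%, against 4.55%) were then no longer clearly above the background. No paired analysis was possible because no result comes from a test and each condition has 1 merged list. Region boundaries are known only to 100 kb, several clusters have fewer windows than genes, and repeated sequence in the clusters limits unique alignment to an extent that was not tested.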
